A study of Homo sapiens with 12 samples.

Results

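The 54 interferon-stimulated genes described here were chosen by name as genes known to respond to interferon, with earlier results of these data already known. Each was found at a single row among the 60623 genes of the count table. Their RNA was measured by poly(A) RNA-seq in 4 stable lines made from A549 cells, which come from a human lung adenocarcinoma, to ask what follows when the aryl hydrocarbon receptor (AHR, a ligand-activated transcription factor) is phosphorylated at S489 by the mitotic kinase PLK1. V cells carried the empty lentiviral vector pLV-EF1a-IRES-Hygro, WT cells HA-tagged wild-type AHR, SA cells HA-AHR with S489A, which cannot be phosphorylated at that serine, and SD cells HA-AHR with the phosphomimetic S489D. All 4 lines were infected with lentivirus and selected with hygromycin, the controls included, and the EF1a promoter of the vector drives AHR at all times. Every line is represented by 3 biological replicates, which makes 12 libraries. Because a construct is present in 1 line only, its effect and whatever else sets that line apart cannot be told apart. The labels do not say that replicates came from separate infections, so the p-values measure the spread between libraries of a line.

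Library totals, in expected counts, went from 9378152 to 9775608 in V, from 7844045 to 11376008 in WT, from 9986096 to 11765576 in SA and from 9334091 to 11207920 in SD. Levels are given as CPM (counts scaled to a common library size with TMM factors). AHR was at 69.0 ± 4.67 CPM in V (mean ± SD, n = 3), and the AHR lines had 266 ± 28.8 (WT), 224 ± 6.20 (SA) and 210 ± 9.86 (SD). The epithelial label was checked with KRT7, KRT8, KRT18, EPCAM and CDH1. EPCAM was near the floor, between 0.380 and 1.74 CPM over the 12 libraries, and the other markers were higher in every library. The summed level of all of these markers, nearly all of it keratin, was between 7633 and 8012 CPM in V and 6463 and 6488 in WT. It was between 6207 and 6400 in SA and 5748 and 6085 in SD. Of the leukocyte markers given here, CD3E was at 0 in all 12 libraries, PTPRC and LYZ did not exceed 0.172 CPM, and CD14 made up the rest of a sum between 11.4 CPM in V and 22.5 CPM in SD. Of 4 fibroblast markers, DCN was at 0 in all libraries, and the summed level lay between 5.70 and 13.5 CPM.

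Interferons are secreted proteins by which cells warn of viral infection. Type I interferons bind a receptor of the chains IFNAR1 and IFNAR2, whose kinases JAK1 and TYK2 phosphorylate STAT2 and so allow assembly, with IRF9, of the complex ISGF3, which binds the interferon-stimulated response element (ISRE) in the promoters of many genes. Their products sense viral RNA, degrade it, block its translation, or stop the virus at the membrane, and many are also made at a low level without any interferon. Type III interferons use the same factors in epithelial cells, and interferon gamma acts at another element, GAS.

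Most of the 54 genes were transcribed at low or moderate levels in A549 cells. Per kilobase of exonic sequence, LGALS3BP, a secreted glycoprotein that binds galectins, was highest, at a mean of 120 CPM per kb over the 12 libraries. It was followed by IFITM2, a membrane protein that blocks virus entry, at 31.0 CPM per kb and the RNA editing enzyme ADAR at 30.9. Before testing, genes with too few counts in the libraries of a pair of lines were removed, which left 43 members in each comparison with V. DHX58, OAS2, BST2, MX2, RSAD2, CMPK2, IFI27, IFI44L, EPSTI1 and XAF1 were tested in no comparison, and none of these 10 exceeded 1.14 CPM in any library. RSAD2 (viperin), among the most inducible of all interferon-stimulated genes, had 3 counts over all libraries and was at 0 in 10 of them. The limit that a count of 0 allows is 3 counts of a library, which is between 0.255 and 0.382 CPM and covers counting error only.

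More members passed the threshold in SD than in WT or SA, each against the empty vector line. Between SD and V, 8 of the 43 members tested (18.6%) had an adjusted p under 0.05, of which 7 rose and 1 fell, while 5.41% of all 14890 genes tested passed in that comparison (2.92% higher and 2.49% lower). The 7 that rose in SD were STAT2, IFIT3, IFITM2, IFITM3, PARP9, SAMD9L and LGALS3BP, by between 1.21-fold (STAT2) and 2.43-fold (SAMD9L), and OAS1 fell. Between WT and V, 4 of 43 members passed (9.30%, against 5.24% of 14772 genes, 2.31% higher and 2.93% lower), namely IFIT3, SAMD9 and LGALS3BP, which rose, and OAS1, which fell. Between SA and V, 2 of 43 passed (4.65%, against 7.17% of 14913 genes, 3.88% higher and 3.29% lower), with LGALS3BP higher and OAS1 lower, a share no larger than that of all genes. The 3 comparisons share the V libraries, and in RNA of whole cultures fewer cells of a kind and less RNA per cell cannot be told apart. The count of 8 depended on single libraries and was 2 without V replicate 2, 4 without V replicate 1, V replicate 3 or SD replicate 2, 5 without SD replicate 1 and 6 without SD replicate 3. Without V replicate 2 the count was 4 in WT and 0 in SA, and in SA it was 1 without SA replicate 1 or SA replicate 2.

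**Figure D1:**
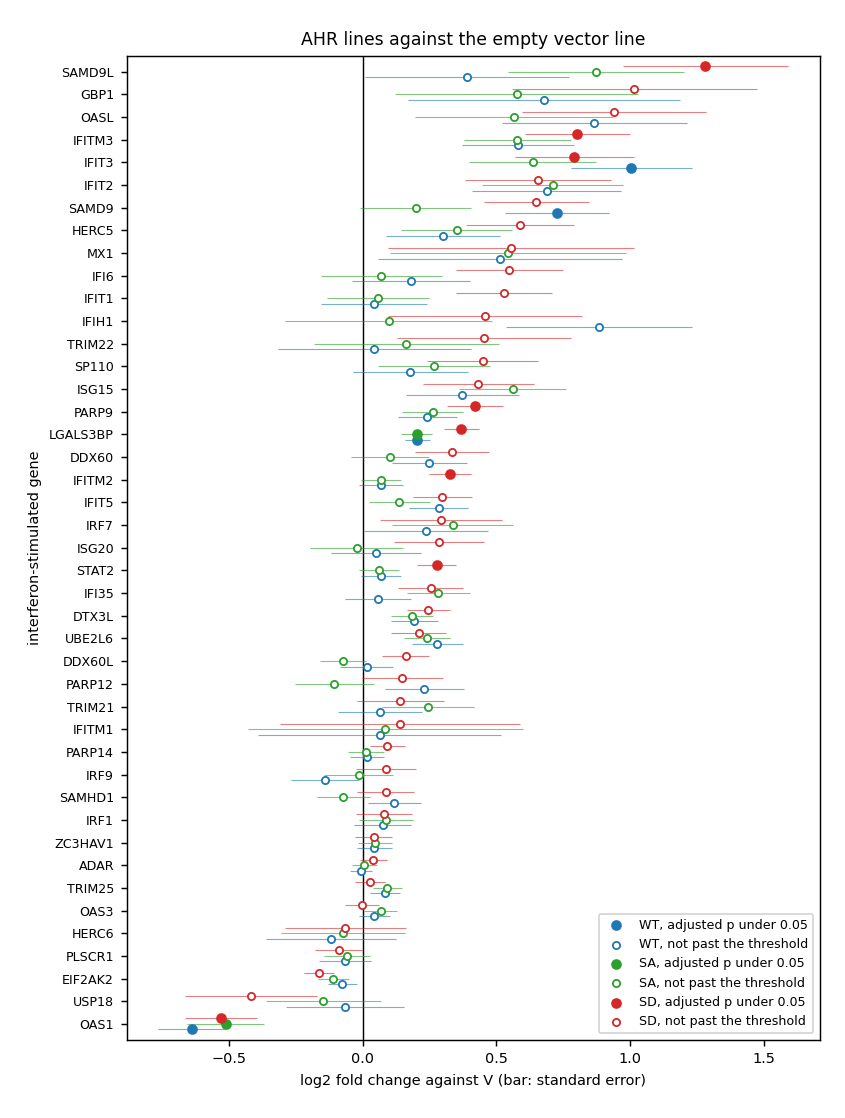
Log2 fold change of each of the 43 interferon-stimulated genes tested, in WT, SA and SD against V, with genes ordered by their value in SD; bars are standard errors and filled points have an edgeR adjusted p under 0.05. Filled points are 8 in SD, 4 in WT and 2 in SA, and OAS1 is the lowest gene in all 3 lines.

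The small number of calls stood beside a wider shift of the members. In SD against V, 37 of the 43 members tested had a log2 fold change above 0, with a median of 0.29 against 0.0030 over all genes tested. Every SD library was above every V library for 19 members (44.2%), where this held for 11.0% of all genes, and every SD library was below every V library for 2 members (4.65%), where it held for 10.4% of all genes. In WT against V the median was 0.12 (0.0018 over all genes), with 12 members entirely higher (27.9% against 11.2%) and 1 entirely lower (background 10.6%). In SA against V it was 0.10 (−0.0024 over all genes), with 10 members entirely higher (23.3% against 12.8%) and 1 entirely lower (background 11.0%). These medians leave out the members with few counts. With all members that had at least 1 count, they were 0.31 in SD (54 members), 0.18 in WT (53) and 0.21 in SA (53). RSAD2 and XAF1 had no count in V, so they entered these medians only through an AHR line and could only be higher there. The median of all genes under this filter was not computed, so these values have no background beside them. The mean of the log2 levels of 44 members relative to V, taken per library, was 0.26, 0.26 and 0.27 in the SD libraries, 0.14, 0.22 and 0.19 in WT, 0.16, 0.12 and 0.17 in SA, and −0.03 to 0.02 in V. This set includes IFI44, which passed the filter only in SD against WT, the lines in which it was highest. The mean without it was not computed. The median over the same members was 0.23 to 0.25 in SD, 0.13 to 0.15 in WT, 0.12 to 0.16 in SA and −0.02 to 0.01 in V. All SD libraries lay above all other libraries by mean and by median, and WT and SA overlapped each other above V.

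**Figure D2:**
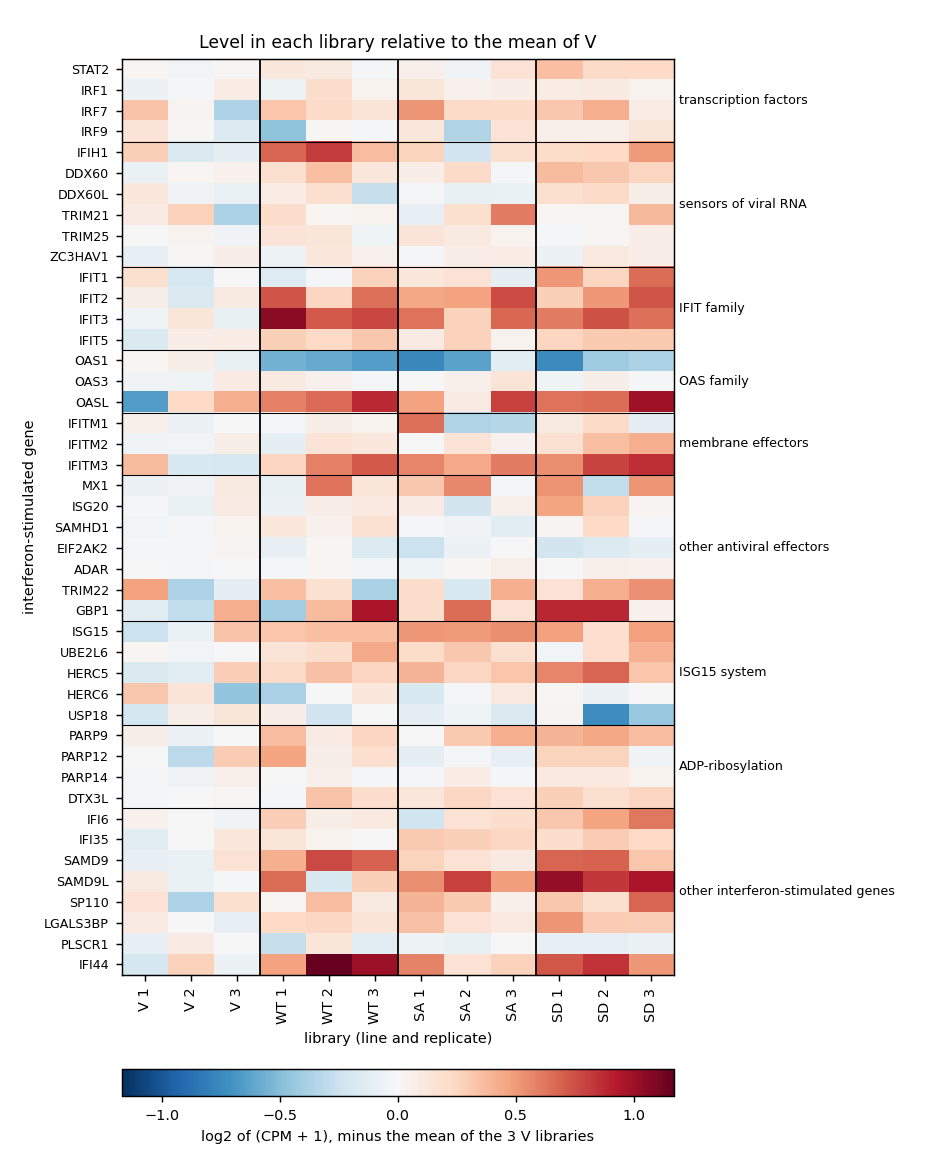
Log2 of (CPM + 1) of the 44 interferon-stimulated genes tested in any comparison, in each of the 12 libraries, minus the mean of the 3 V libraries and grouped by role; red is higher and blue lower than V. The SD columns hold the most red, and OAS1 is blue in the AHR lines.

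Promoters that hold a match, among the members past the threshold, are shown because ISGF3 acts on its target genes there. Windows of 300 bases (250 before the start of transcription and 50 after it) were taken from RefSeq on GRCh38.p14 and matched for 45 of the 54 members. The ISRE core, written as GAAA and GAAA with a pair of any bases between them and searched on both strands, was found in the windows of 30 of these 45 members (66.7%) and in 4.38% of all 27305 genes with a window. The GAS core TTCNNNGAA was found in 14 of 45 members (31.1%) against 9.38% of all genes, and the core of the AHR response element, GCGTG, in 14 of 45 (31.1%) against 40.6%. Of the 8 members with a window that passed the threshold in any comparison, 5 held the ISRE core and OAS1 the GAS core. The OAS1 window also holds gaaacgaaa, in which a single base separates GAAA from GAAA. The search pattern could not match that spacing, so OAS1 is not shown to lack an ISRE. The windows of STAT2 and SAMD9L held none of the 3 motifs and are not shown. In the windows below, given 5′ to 3′ on the strand of the gene, capitals mark the ISRE core or, in OAS1, the GAS core. A match of letters is a description and not a measured binding site.
IFIT3, upstream start (chr10:89327747-89328046, plus strand): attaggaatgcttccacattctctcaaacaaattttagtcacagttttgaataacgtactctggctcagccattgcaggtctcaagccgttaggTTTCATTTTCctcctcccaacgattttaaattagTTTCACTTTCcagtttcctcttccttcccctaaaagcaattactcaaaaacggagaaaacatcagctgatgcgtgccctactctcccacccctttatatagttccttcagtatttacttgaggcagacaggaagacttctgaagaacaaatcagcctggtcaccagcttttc
IFIT3, downstream start (chr10:89332279-89332578, plus strand): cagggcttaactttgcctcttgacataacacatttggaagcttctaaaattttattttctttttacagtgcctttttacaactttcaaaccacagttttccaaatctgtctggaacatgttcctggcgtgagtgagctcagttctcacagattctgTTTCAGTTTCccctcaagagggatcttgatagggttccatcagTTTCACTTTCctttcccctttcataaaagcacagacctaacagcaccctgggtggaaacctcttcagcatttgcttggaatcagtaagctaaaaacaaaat
IFITM3 (chr11:320811-321110, minus strand): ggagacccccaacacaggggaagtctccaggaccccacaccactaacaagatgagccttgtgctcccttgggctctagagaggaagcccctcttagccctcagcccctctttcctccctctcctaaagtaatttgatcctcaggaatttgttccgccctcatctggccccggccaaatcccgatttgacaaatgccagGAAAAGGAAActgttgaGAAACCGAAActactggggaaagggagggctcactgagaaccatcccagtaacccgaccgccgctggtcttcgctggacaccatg
PARP9 (chr3:122564251-122564550, minus strand): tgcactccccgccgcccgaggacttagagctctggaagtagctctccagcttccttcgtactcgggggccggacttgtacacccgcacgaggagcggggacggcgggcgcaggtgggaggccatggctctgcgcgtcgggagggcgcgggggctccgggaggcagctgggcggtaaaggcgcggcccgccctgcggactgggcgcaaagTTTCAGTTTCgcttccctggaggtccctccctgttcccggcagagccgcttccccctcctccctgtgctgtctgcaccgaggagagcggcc
SAMD9 (chr7:93117930-93118229, minus strand): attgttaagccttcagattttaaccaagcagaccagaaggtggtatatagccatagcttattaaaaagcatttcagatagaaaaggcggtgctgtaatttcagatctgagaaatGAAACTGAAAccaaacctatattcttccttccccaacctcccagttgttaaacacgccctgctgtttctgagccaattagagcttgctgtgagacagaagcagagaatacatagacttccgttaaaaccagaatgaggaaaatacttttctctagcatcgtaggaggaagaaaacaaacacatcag
LGALS3BP (chr17:78979874-78980173, minus strand): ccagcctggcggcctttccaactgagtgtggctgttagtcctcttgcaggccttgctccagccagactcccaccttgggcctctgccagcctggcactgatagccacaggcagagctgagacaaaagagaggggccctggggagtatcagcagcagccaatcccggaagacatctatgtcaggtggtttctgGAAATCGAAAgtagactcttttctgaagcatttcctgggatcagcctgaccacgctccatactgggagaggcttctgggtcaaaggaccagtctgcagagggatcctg
OAS1 (chr12:112906712-112907011, plus strand): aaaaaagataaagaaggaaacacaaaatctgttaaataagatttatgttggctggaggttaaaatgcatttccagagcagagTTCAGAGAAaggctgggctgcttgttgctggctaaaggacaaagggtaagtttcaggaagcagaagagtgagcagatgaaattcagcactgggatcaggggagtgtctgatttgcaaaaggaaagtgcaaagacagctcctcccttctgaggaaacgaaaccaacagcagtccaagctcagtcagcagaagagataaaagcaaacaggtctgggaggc
The ISRE core lay from 58 to 49 bases before the start in LGALS3BP and from 41 to 32 bases before it in PARP9. It occurred at a pair of places in each IFIT3 window and in IFITM3. The letters GCGTG or their reverse complement were also in the windows of IFIT3, SAMD9 and LGALS3BP.

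Of the transcription factors of the response, STAT2 changed and the interferon regulatory factors did not pass the test. STAT2 (ENSG00000170581, chromosome 12, 56341597 to 56360167 of GRCh38, minus strand) was at 51.6, 49.7 and 51.3 CPM in V, 55.5, 54.7 and 49.9 in WT, 53.0, 49.5 and 57.5 in SA, and 65.3, 59.5 and 60.0 in SD. All SD libraries were above those of the other 3 lines, which overlapped each other. The log2 fold change in SD against V was 0.28 (standard error 0.07, edgeR adjusted p = 0.0245), and it was 0.07 in WT and 0.06 in SA. The adjusted p ranged from 0.0107 to 0.0946 over the alternatives, and the call was lost with DESeq2 and without SD replicate 1 or any single V library. IRF9, the DNA-binding partner of STAT2, had a log2 fold change of 0.09 in SD against V, −0.14 in WT and −0.02 in SA. Its counts were divided in all 12 libraries with a readthrough gene, ENSG00000259529, that shares 1544 of its exonic bases. IRF7, which amplifies interferon production, was at 5.28 ± 1.48 CPM in V and 6.51 ± 0.888 in SD (n = 3 each), and IRF1 at 22.3 ± 1.30 and 23.5 ± 0.591.

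No sensor of viral RNA passed the threshold against V. IFIH1 (MDA5), which binds long double-stranded RNA, was at 2.25, 1.38 and 1.48 CPM in V, 3.29, 3.71 and 2.43 in WT, 2.20, 1.29 and 2.04 in SA and 2.10, 2.14 and 2.77 in SD. Its WT libraries were all above those of V and SA, with a log2 fold change of 0.88 against V (standard error 0.35, edgeR adjusted p = 0.159). DDX60, a helicase that assists these sensors, was at 11.5 ± 0.617 CPM in V and 14.6 ± 0.610 in SD (n = 3), a log2 fold change of 0.33 (adjusted p = 0.183). TRIM25, a ubiquitin ligase that activates RIG-I, and ZC3HAV1, which targets viral RNA for decay, had log2 fold changes in the 3 AHR lines between 0.03 and 0.09.

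All 4 IFIT genes, whose products bind foreign RNA and block its translation, were higher in every SD library than in every V library, and 1 of them passed the threshold. IFIT3 (ENSG00000119917, chromosome 10, 89327997 to 89340971, plus strand) was at 3.58, 4.24 and 3.48 CPM in V, 8.87, 6.81 and 7.18 in WT, 6.40, 4.72 and 6.56 in SA, and 6.19, 6.97 and 6.44 in SD. All 9 AHR libraries exceeded the highest V library. IFIT3 rose 2.01-fold in WT (log2 fold change 1.00, standard error 0.23, edgeR adjusted p = 0.00580) and 1.73-fold in SD (0.79, standard error 0.22, adjusted p = 0.0340). In SA the log2 fold change was 0.64 (adjusted p = 0.111). The call in WT held under all alternatives, with adjusted p-values up to 0.0433. The call in SD was lost without any single library of V or SD, with DESeq2 and with the replicate number as a block (adjusted p up to 0.133). IFIT1, IFIT2 and IFIT5 had log2 fold changes in SD of 0.53, 0.66 and 0.30 (edgeR adjusted p = 0.0899, 0.186 and 0.129). IFIT2 was also entirely higher in WT (0.69) and SA (0.71), whereas IFIT1 was at 0.04 and 0.06 there. IFIT2 and IFIT3 share 65 and 94 exonic bases with LIPA on the opposite strand, and whether the counting used strand is not given in the sources used here.

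The OAS genes, which make the second messenger that activates RNase L, went in different directions. OAS1 (ENSG00000089127, chromosome 12, 112906783 to 112933222, plus strand) was at 19.1, 19.8 and 17.7 CPM in V, 12.5, 12.2 and 11.7 in WT, 10.8, 11.9 and 17.1 in SA, and 10.9, 13.9 and 14.4 in SD. No library of an AHR line reached the lowest V library, although SA replicate 3 came close. OAS1 fell by 0.64 on the log2 scale in WT (standard error 0.13, edgeR adjusted p = 0.00146), by 0.51 in SA (standard error 0.14, adjusted p = 0.0273) and by 0.53 in SD (standard error 0.13, adjusted p = 0.0154). It was the lowest member in each of these comparisons. In WT the call held with every library left out. In SA it was lost without V replicate 1, V replicate 2, SA replicate 1 or SA replicate 2 and with DESeq2, and in SD without V replicate 1, V replicate 2 or SD replicate 1 (highest adjusted p 0.136 and 0.0767). OAS3 stayed within 0.07 of V in all 3 lines, between 101 ± 4.36 CPM in SD and 106 ± 5.69 in SA (n = 3). OASL, which lacks the enzymatic activity and assists RIG-I, had log2 fold changes of 0.87, 0.57 and 0.94 in WT, SA and SD (edgeR adjusted p = 0.169, 0.430 and 0.120), with V libraries spread from 0.921 to 3.06 CPM.

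**Figure D3:**
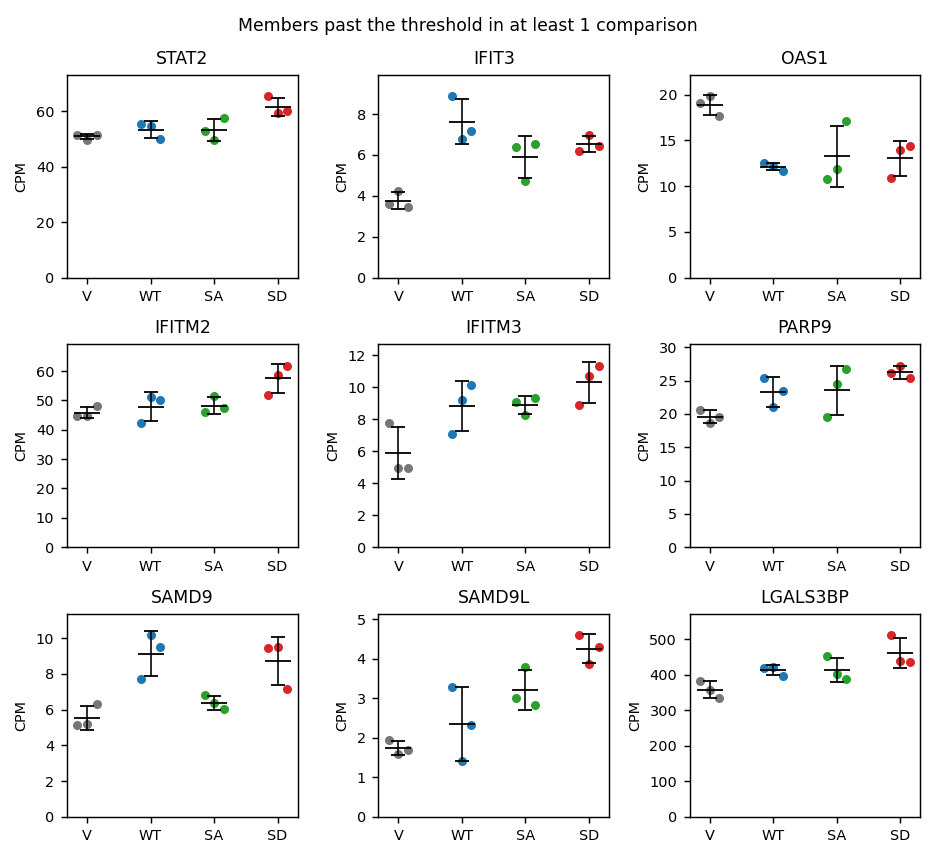
CPM in each library (points) of the 9 interferon-stimulated genes with an edgeR adjusted p under 0.05 in any comparison, with the mean and standard deviation of the 3 libraries of each line and axes that start at 0. OAS1 is the only panel in which V is highest, and IFIT3 and SAMD9 have their highest mean in WT, with WT and SD libraries that overlap.

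IFITM2 and IFITM3, membrane proteins that keep viruses from fusing with the cell, rose in SD. IFITM3 (ENSG00000142089, chromosome 11, 319676 to 327537, minus strand) was at 7.78, 4.98 and 4.95 CPM in V, 7.10, 9.19 and 10.2 in WT, 9.10, 8.25 and 9.31 in SA, and 8.88, 10.7 and 11.4 in SD. V replicate 1 stood above the other V libraries and above the lowest WT library. IFITM3 rose 1.74-fold in SD (log2 fold change 0.80, standard error 0.20, edgeR adjusted p = 0.0127), and in WT and SA the log2 fold change was 0.58 (adjusted p = 0.119 and 0.0825). Without V replicate 1 it also passed in WT and SA (adjusted p = 0.0451 and 0.0255). IFITM2 (ENSG00000185201, chromosome 11, 307631 to 315272, plus strand) was at 44.6, 44.9 and 48.1 CPM in V, 42.3, 51.2 and 50.1 in WT, 45.9, 51.4 and 47.4 in SA, and 52.0, 58.6 and 61.8 in SD. Its SD libraries were above all others, with a log2 fold change of 0.33 against V (standard error 0.08, edgeR adjusted p = 0.0120) and of 0.07 in both WT and SA. In SD the call of IFITM3 was lost without V replicate 2, V replicate 3, SD replicate 2 or SD replicate 3, and that of IFITM2 without V replicate 1, V replicate 2, SD replicate 2 or SD replicate 3 (highest adjusted p 0.0829 and 0.0765). The IFITM genes resemble each other in sequence, and in the deposited coordinates IFITM2 also spans IFITM1 (313506 to 315272) on the same strand. The counts of IFITM3 were not whole in 12 libraries, those of IFITM2 in 11 and those of IFITM1 in 6. The source of the divided counts was not tested. Added together, IFITM1, IFITM2 and IFITM3 were at 52.8 ± 1.75 CPM in V and 69.0 ± 6.13 in SD (n = 3), a log2 fold change of 0.39 (standard error 0.08, edgeR adjusted p = 0.00173), against 0.13 in WT and 0.14 in SA (adjusted p = 0.406 and 0.288).

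The other antiviral effectors did not pass the threshold in any line. ADAR was at 375 ± 2.40 CPM in V and 386 ± 7.48 in SD (n = 3), a log2 fold change of 0.04. EIF2AK2 (PKR), the kinase that stops translation when it meets double-stranded RNA, was entirely lower in SD than in V, at 132 ± 4.55 against 148 ± 2.83 CPM, with a log2 fold change of −0.16 (edgeR adjusted p = 0.0918). GBP1, a GTPase induced mainly by interferon gamma, had the second highest log2 fold change of all members in SD (1.02, adjusted p = 0.239), but its libraries overlapped between SD (1.07 to 2.69 CPM) and V (0.636 to 1.69 CPM). MX1, which traps viral nucleocapsids, stayed under 1.5 CPM on average in each line.

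In the ISG15 system, in which UBE2L6 and HERC5 attach the ubiquitin-like ISG15 to proteins and USP18 removes it, no gene passed the threshold. ISG15 was at 4.60, 5.30 and 7.38 CPM in V, 7.35, 7.51 and 7.51 in WT, 8.50, 8.42 and 8.69 in SA, and 8.28, 6.65 and 8.31 in SD. It was entirely higher than V in SA alone, with a log2 fold change of 0.56 (edgeR adjusted p = 0.0913, and 0.0372 without V replicate 3). HERC5 had a log2 fold change of 0.59 in SD (adjusted p = 0.0938) and UBE2L6 of 0.21 to 0.28 in the 3 lines. USP18, which also restrains interferon receptor signalling, was on the other side, at −0.42 in SD (adjusted p = 0.412).

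PARP9 and DTX3L, an ADP-ribosyltransferase and the ubiquitin ligase that binds it, are neighbours on chromosome 3. PARP9 (ENSG00000138496, 122527924 to 122564577, minus strand) was at 20.6, 18.7 and 19.6 CPM in V, 25.5, 21.0 and 23.5 in WT, 19.5, 24.5 and 26.7 in SA, and 26.1, 27.2 and 25.4 in SD. The V and SD libraries did not overlap, while SA replicate 1 lay among those of V. PARP9 rose 1.34-fold in SD (log2 fold change 0.42, standard error 0.10, edgeR adjusted p = 0.0140), and the log2 fold change was 0.24 in WT and 0.26 in SA. The call was lost without V replicate 2, V replicate 3 or SD replicate 2 (adjusted p up to 0.0737). DTX3L was entirely higher in SD as well, at 43.7 ± 1.43 CPM against 36.9 ± 0.348 in V (n = 3), with a log2 fold change of 0.25 (adjusted p = 0.0792). The pair share 139 exonic bases on opposite strands. PARP14, another ADP-ribosyltransferase, had a log2 fold change of 0.09 in SD.

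SAMD9 and SAMD9L are adjacent paralogues on chromosome 7 that restrict poxviruses and cell growth. SAMD9L was highest in SD, while the mean of SAMD9 was highest in WT, where its libraries overlapped those of SD. SAMD9L (ENSG00000177409, 93130056 to 93148385, minus strand) was at 1.94, 1.59 and 1.69 CPM in V, 3.29, 1.41 and 2.32 in WT, 3.00, 3.78 and 2.84 in SA, and 4.59, 3.86 and 4.29 in SD. All SD libraries were above all libraries of the other lines. It rose 2.43-fold in SD against V (log2 fold change 1.28, standard error 0.31, edgeR adjusted p = 0.0115), the largest change of any member in SD, and the call held under all alternatives, with adjusted p-values up to 0.0466. SAMD9 (ENSG00000205413, 93099513 to 93118023, minus strand) was at 5.12, 5.20 and 6.32 CPM in V, 7.73, 10.2 and 9.50 in WT, 6.80, 6.36 and 6.03 in SA, and 9.48, 9.54 and 7.15 in SD. WT and SD were entirely above V, and SA overlapped V. SAMD9 rose 1.65-fold in WT (log2 fold change 0.73, standard error 0.19, edgeR adjusted p = 0.0233). This call was lost without V replicate 1, V replicate 2, WT replicate 2 or WT replicate 3 and with the replicate number as a block (adjusted p up to 0.106). In SD the log2 fold change of SAMD9 was 0.65 (adjusted p = 0.0515), which fell under the threshold in 5 alternatives, with the lowest value without SD replicate 3 (0.0263).

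LGALS3BP was the member called in all 3 lines in the same direction besides OAS1. It (ENSG00000108679, chromosome 17, 78971238 to 78979947, minus strand) was at 382, 358 and 333 CPM in V, 419, 422 and 396 in WT, 453, 401 and 387 in SA, and 511, 439 and 436 in SD. The lowest AHR-line library, SA replicate 3, still exceeded the highest one of V. LGALS3BP rose by a log2 fold change of 0.37 in SD (standard error 0.06, edgeR adjusted p = 4.37e-04), 0.20 in WT (standard error 0.05, adjusted p = 0.00823) and 0.20 in SA (standard error 0.06, adjusted p = 0.0305). In SD the call held under all alternatives. In WT it was lost without V replicate 3 and with all 12 libraries in a single fit, and in SA under that fit and without V replicate 2, V replicate 3 or SA replicate 1. Of the remaining genes, IFI6, a mitochondrial and endoplasmic reticulum protein, was at 5.02 ± 0.187 CPM in V and 7.33 ± 0.870 in SD, entirely higher in SD than in all libraries of the other lines, with a log2 fold change of 0.55 (adjusted p = 0.123). PLSCR1 had log2 fold changes between −0.09 and −0.06.

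IFI44, a cytoplasmic protein of unsettled function, had too few counts for the tests against V. It was at 0.102, 0.530 and 0.211 CPM in V, 0.760, 1.86 and 1.55 in WT, 0.900, 0.430 and 0.532 in SA, and 1.10, 1.29 and 0.804 in SD. The WT and SD libraries were all above those of V, at a depth where a count of 0 allows up to 0.382 CPM. Once the filter was lowered to 1 count, IFI44 passed in WT against V (edgeR adjusted p = 0.0238), as it did with all 12 libraries in a single fit (0.0298).

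The genes upstream of the members were described by 35 genes for interferons, their receptors, kinases, sensors and inhibitors. IFNB1, IFNK, IFNL1, IFNL2 and IFNG had no count in any library, IFNL3 had 2 counts in all and IFNA1 14. IFNE, an epithelial interferon, was the only interferon transcript at a testable level, at 3.63 CPM in V and 3.68 in SD. No receptor chain passed the threshold in a comparison with V. Of 27 genes of this list tested in SD against V, 2 passed (7.41%, background 5.41%), as did 2 of 28 in SA (7.14%, background 7.17%). In WT 0 of 27 passed (background 5.24%). An unadjusted p under 0.05 was reached in WT by 4 of the 27 with edgeR (14.8%), a share below the 17.4% of all genes. DESeq2 also called 0, with 3 unadjusted. SOCS3, the feedback inhibitor of JAK kinases that STAT3 induces, was at 37.2, 40.6 and 38.5 CPM in V, 46.8, 43.0 and 45.3 in WT, 51.9, 46.0 and 54.1 in SA and 48.9, 55.5 and 54.4 in SD. It was entirely higher than V in the AHR lines and rose in SD (log2 fold change 0.45, standard error 0.08, edgeR adjusted p = 6.38e-04) and SA (0.38, standard error 0.08, adjusted p = 0.00313), with 0.21 in WT (adjusted p = 0.142).

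JAK1 was the gene of this list that fell. It was at 198, 198 and 195 CPM in V, 184, 185 and 181 in WT, 159, 182 and 180 in SA and 165, 175 and 167 in SD. Its values were below V in every library of the AHR lines, and it fell by 0.23 on the log2 scale in SD (standard error 0.05, edgeR adjusted p = 0.0112) and by 0.19 in SA (standard error 0.05, adjusted p = 0.0326). The call in SD was lost without V replicate 1 or V replicate 2 (adjusted p up to 0.0708), and in SA without any single V library, SA replicate 1 or SA replicate 3 (up to 0.141). RIG-I (RIGI) was at 15.1 ± 0.701 CPM in V and 18.1 ± 1.27 in SD, with a log2 fold change of 0.26 (adjusted p = 0.266).

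Among the AHR lines themselves, no interferon-stimulated gene passed the threshold in the main test. With the replicate number added to the fit as a block, LGALS3BP passed in SD against SA (edgeR adjusted p = 0.0279). In SD against WT, 0 of 44 members were called by edgeR (background 0.708% of 14828 genes, 0.513% higher and 0.196% lower), for SD relative to SA 0 of 43 (0.220% of 15030, with 0.160% higher and 0.0599% lower) and between WT and SA 0 of 43 (0.0803% of 14942, with 0.0201% higher and 0.0602% lower). An unadjusted p under 0.05 was reached by 5, 7 and 3 members in the same order with edgeR and by 5, 6 and 3 with DESeq2, which also called 0. Without adjustment, such p-values were found for 10.6%, 8.52% and 7.31% of all genes. All of these members with edgeR were higher in the line named first. In SD against WT they were SAMD9L (log2 fold change 0.89, standard error 0.32), IFIT1 (0.48, standard error 0.18), IFITM2 (0.26, standard error 0.08), STAT2 (0.21, standard error 0.08) and LGALS3BP (0.16, standard error 0.06), with edgeR adjusted p-values from 0.206 to 0.286. STAT2, IFIT1, IFITM2 and LGALS3BP were also among the 7 in SD against SA, with log2 fold changes of 0.21, 0.47, 0.26 and 0.16, and the others were DDX60L, IFI6 and SAMD9 (0.23, 0.48 and 0.45). These comparisons share the SD libraries. Every library of SD was above every library of WT for 7 members (8.53% of all genes) and below for 0 (7.49%), SD was above SA for 9 (6.52%) and below for 1 (6.98%), and WT was above SA for 5 (5.82%) and below for 2 (7.18%). The 3 members with an unadjusted edgeR p under 0.05 in WT against SA were IFIH1, SAMD9 and PARP12 (log2 fold changes 0.79, 0.53 and 0.34). The median log2 fold change of the members was 0.064 in SD against WT, 0.15 in SD against SA and −0.0021 between WT and SA, beside −0.00080, 0.00066 and −0.0015 over all genes tested. A change of a member in SD and not in WT or SA against V is therefore not shown to differ between these lines.

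**Figure D4:**
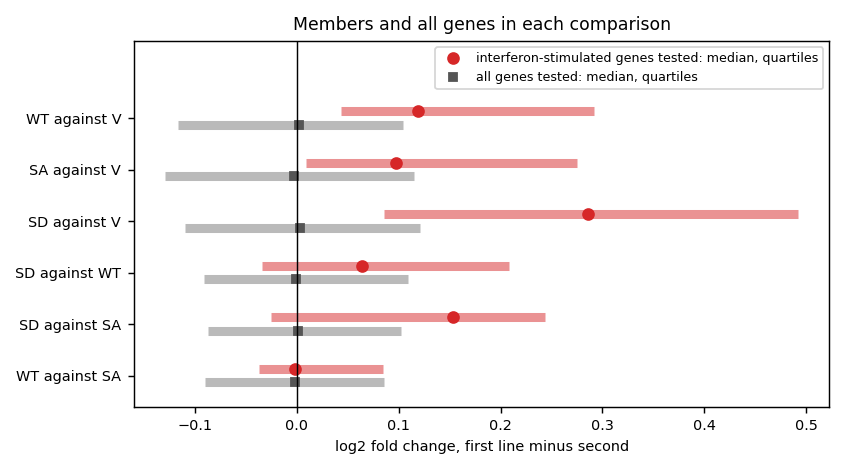
Median (point) and quartiles (bar) of the log2 fold changes of the interferon-stimulated genes tested and of all genes tested, in each of the 6 comparisons. The median of the members is 0.29 in SD against V and −0.0021 in WT against SA, and that of all genes lies near 0 throughout.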

How the data were processed

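Poly(A) RNA of 12 libraries, 3 from each of 4 A549 lines, was sequenced. The deposited values are expected counts per gene that the authors made with Trimmomatic v0.39 and RSEM on GRCh38 transcripts; the annotation release and strandedness are not given in the sources used here. Expected counts were rounded to whole numbers. A comparison used the 6 libraries of its 2 lines in edgeR 4.0.16 (R 4.3.3): filterByExpr (minimum count 10, minimum total 15), TMM normalization, quasi-likelihood test and Benjamini-Hochberg adjustment over all genes tested, with a threshold of 0.05. Standard errors were derived from the F statistic. CPM used TMM factors over the 12 libraries, and relative levels log2(CPM + 1). Coordinates are as deposited; exonic lengths come from GENCODE release 44. All tested members entered the counts and the figures, and those past the threshold in any comparison were given in full. Some of the other tested members are not named in the text. The members and gene lists were chosen with earlier results of these data known. Replicate numbers were not taken to pair the libraries, although same-numbered libraries matched best in every comparison between AHR lines. Replicates differed by more than sampling noise. The script was tested on simulated data. Alternatives were other low-count filters, DESeq2 1.42.0 size factors, DESeq2, edgeR's exact test, a single fit of all 12 libraries, a replicate block, each library left out, and, chosen after seeing the data, IFITM1 to IFITM3 added together. Some genes of the marker and upstream lists are not reported here.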

Additional observations from a re-analysis of the deposited data

How the results depend on the processing

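Of 18 pairs of a gene and a comparison past the threshold, none turned direction under any alternative, and 184 single-gene values under the alternatives stayed past the threshold while 50 did not. With genes of at least 1 count, the median log2 fold change of the members was 0.18 in WT against V, 0.21 in SA against V, 0.31 in SD against V and 0.12 in SD against SA, over more low genes, and 1 upstream gene (SOCS1) was called in SD against SA. Under this filter RSAD2 and XAF1, with no count in V, entered comparisons with V only through the AHR line. In WT against V the median was 0.080 with at least 10 counts in every library and 0.15 with all 12 libraries in a single fit. In SA against V, 1 member was called with DESeq2 (LGALS3BP) and 1 with the single fit (OAS1); the cause was not tested. The replicate block gave 3, 3 and 7 members in WT, SA and SD against V and 1 in SD against SA (LGALS3BP), against 0 without it. Under the block SAMD9 in WT and IFIT3 in SD had edgeR adjusted p-values of 0.0525 and 0.0506, and IFITM3 in SA passed (0.0486). Deviations of same-numbered libraries correlated between −0.0523 and 0.0918, none over 0.1, so the numbers were not taken as pairing. As a hint from the data, and not from the design, every library correlated best with its own number in each comparison between AHR lines (6 of 6), whereas 0, 4 and 2 of 6 did in WT, SA and SD against V. With each library left out, members called ranged from 3 to 5 in WT, 0 to 2 in SA and 2 to 6 in SD against V, and stayed 0 between AHR lines. Upstream genes called ranged from 1 to 2 in SA and 1 to 3 in SD, and stayed 0 in the other comparisons. The medians ranged from 0.088 to 0.19 in WT, 0.078 to 0.15 in SA and 0.26 to 0.32 in SD against V, from 0.044 to 0.090 in SD against WT, 0.12 to 0.18 in SD against SA and −0.014 to 0.043 in WT against SA. Members near 1 CPM rest on about 10 counts a library, and a change in them was not detectable at this depth unless large.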
